A study of Mus musculus with 17 samples.

Results

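The nuclear genes of oxidative phosphorylation were followed in the mouse hippocampus at ages of 3, 24 and 29 months. They are the protein-coding genes whose mouse symbol begins with Nduf, Sdh, Uqcr, Atp5 or with Cox and a digit. This rule gave 106 genes among 38355 identifiers, of which 21173 are protein-coding. It took in 36 subunits of complex I, 4 of complex II, 8 of complex III, 20 subunits and isoforms of complex IV and 16 subunits of ATP synthase. It also took in 8 assembly factors of complex I, 4 of complex II and 9 of complex IV, and the coupling factor B gene Atp5s. Genes encoded on mitochondrial DNA (mt-) belong to the same system and were not analysed here, so every value below is of a nuclear gene.

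Oxidative phosphorylation is the last step of cellular respiration. Complexes I and II pass electrons from NADH and succinate to ubiquinone, complex III passes them on to cytochrome c, and complex IV (cytochrome c oxidase) hands them to oxygen. Complexes I, III and IV pump protons across the inner mitochondrial membrane, and ATP synthase uses the gradient to make ATP, most of which neurons spend on restoring ion gradients after signaling.

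All mice were untreated C57BL/6J wild types, and polyA RNA was made from hippocampi dissected by hand. Single-end libraries came from mice aged 3 months (3M, 5 libraries) and 24 months (24M, 6 libraries). Paired-end libraries came from 3M mice (3 libraries) and from mice aged 29 months (29M, 3 libraries). Whether the 3M mice of the library types were the same animals is not given. Aged mice were compared with 3M mice sequenced in the same way, so age beyond 24 months and library type cannot be told apart. Libraries 1 and 4 of the 24M group differed by less than sampling noise (ratio of observed to binomial variance 0.406, with 1.23 for the next of 136 pairs). Their rounded mean was therefore counted as 1 sample, leaving 5 samples at 24M.

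Gene counts per library ran from 9213474 to 28438296, and the summed level of 8 markers of hippocampal excitatory neurons from 6570 to 8276 CPM (counts scaled to library size). A pair of libraries stood apart. The 24M replicate 3 had 17.3% of its unique reads outside any feature (13.2% to 14.2% in the other 24M libraries), and 29M replicate 2 had 18.2% (13.4% and 14.3% in the others). The medians of log2 fold changes are given with and without them, as are Cox8b and, for 24M replicate 3, Cox8a, Cox14, Ndufaf8 and Uqcrfs1. The microglia markers (5 genes) rose with age, 3 of 5 at 24M and 4 of 5 at 29M, and their part in the results below was not tested. In such bulk tissue, fewer cells of a type and less RNA per cell cannot be told apart.

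The 106 genes together took about 1 count in 100. Their share of gene counts was 0.973% to 1.04% in the 3M single-end group and 0.894% to 1.04% at 24M. Paired-end libraries held 1.05% to 1.09% at 3M and 1.02% to 1.05% at 29M. The ranges overlapped in both comparisons, and the lowest share of each aged group was that of the library with the most reads outside features. At 24M, replicate 3 also held the lowest normalised level of its group for 70 of the 103 genes tested (68.0%), against 27.4% of all genes. In the 3M single-end group, replicate 2 held the lowest level for 58 of 103 (56.3%, against 11.3% of all genes). The 29M replicate 2 held the highest level of its group for 61 of 103 (59.2%, against 33.7% of all genes). These levels are scaled by TMM, a normalization on the bulk of genes, and the share is not.

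**Figure D1:**
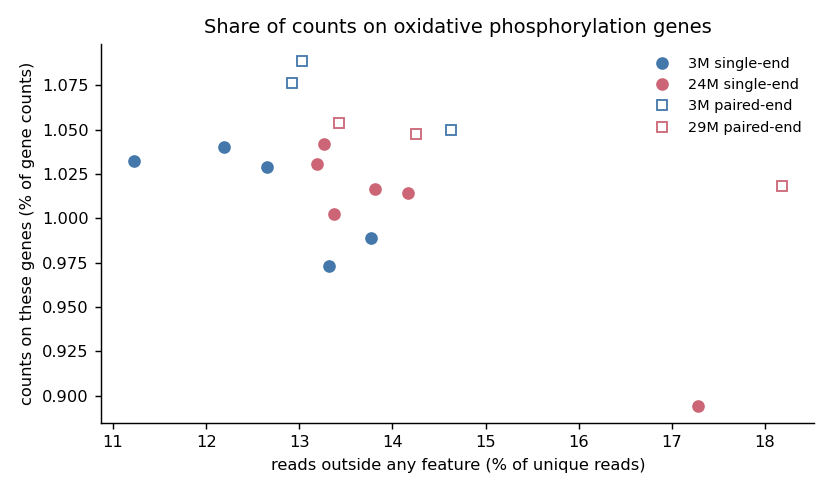
Each point is 1 of the 17 libraries, with the percent of unique reads outside any feature on the x axis and the percent of gene counts on the 106 genes on the y axis. The 24M library at 17.3% has the lowest share, 0.894%, and the 29M library at 18.2% has 1.02%.

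Per kilobase of transcript, the most abundant of these mRNAs in the 3M paired-end group was Atp5b, the catalytic beta subunit of ATP synthase, with a median of 661 CPM per kilobase. Cox8a followed with 537, Cox4i1 with 497 and Cox6a1 with 440, all of them subunits of complex IV. These levels did not overlap between neighbours in that order within this group. Assembly factors stood well below the subunits. Their median was 14.3 CPM per kilobase for complex I and 6.91 for complex IV, against 74.4 and 120 for the subunits of these complexes. Complex III subunits had a median of 127, complex II subunits of 82.5 and ATP synthase subunits of 152.

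Several complex IV subunits exist as alternative isoforms, one in most tissues and another first known from heart and skeletal muscle, lung or testis. The widespread isoform made up nearly all of the mRNA in each pair. Cox4i2, a lung isoform of subunit 4, made up 0.149% to 0.421% of the length-corrected level of its pair with Cox4i1 over all samples. Cox6a2 made up 1.17% to 2.22% of its pair, Cox6b2 1.59% to 3.64% and Cox7a1 1.89% to 4.74%. None of these shares separated an aged group from its 3M group. No read was counted on Cox8c, a testis isoform, among 272393188 gene counts in all libraries, which allows a level of up to 0.011 CPM (3 counts, counting error only). Cox7b2, another testis isoform, had 0 to 12 counts per library. Both were too low to be tested at either age, as were Atp5g2 at 24M and Cox4i2 at 29M, so 103 genes were tested in each comparison.

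At 24M, Cox8b was the only one of 103 genes tested that passed an adjusted p of 0.05 (edgeR's quasi-likelihood test, Benjamini-Hochberg adjustment over 15683 genes). Cox8b is the heart and skeletal muscle isoform of subunit 8 of complex IV, and Cox8a is the isoform of most tissues. Among all genes tested, 3.21% were higher and 2.37% lower by the same rule, so the 1 higher and 0 lower genes lay below both shares. With a log2 fold change of at least 0.5 also required, the shares were 1.34% and 0.638%, and Cox8b still passed. Without the adjustment, 5 genes were higher and 7 lower at p under 0.05, which is 4.85% and 6.8% of those tested, against 14.0% and 12.1% of all genes. In no gene did the 24M and 3M samples separate fully, where 3.15% of all genes separated upwards and 3.42% downwards. With DESeq2 in place of edgeR, 2 of 103 genes were higher (1.94%, against 6.05% of 15419 genes) and 0 lower (against 4.2%). At an unadjusted p under 0.05 there were 10 of 105 (9.52%, against 15.4% of 26418 genes, with no filter on low counts).

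The 2 isoforms are separate genes whose coding sequences can be told apart by reads. Cox8a lies at chr19:7215153-7217616 and Cox8b at chr7:140898945-140900446 (GRCm38, both on the minus strand). The coding sequences, from the GENCODE transcripts, are shown because one isoform passed the test and the other did not; capitals mark bases that differ between them in the alignment or have no partner.
Cox8a: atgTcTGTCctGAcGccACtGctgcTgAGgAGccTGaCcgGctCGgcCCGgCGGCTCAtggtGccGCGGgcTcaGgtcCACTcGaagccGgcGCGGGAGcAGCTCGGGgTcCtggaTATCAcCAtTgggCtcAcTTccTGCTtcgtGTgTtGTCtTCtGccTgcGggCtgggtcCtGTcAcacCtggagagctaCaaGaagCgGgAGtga
Cox8b: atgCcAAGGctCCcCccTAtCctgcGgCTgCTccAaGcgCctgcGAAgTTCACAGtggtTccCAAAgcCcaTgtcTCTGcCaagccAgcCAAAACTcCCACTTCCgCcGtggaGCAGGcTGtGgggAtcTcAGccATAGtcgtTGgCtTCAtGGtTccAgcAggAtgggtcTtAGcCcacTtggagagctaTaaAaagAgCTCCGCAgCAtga
Of 207 aligned bases 109 are identical (52.7%), and the longest identical run is 10 bases. No window of 50 bases of either transcript is shared with another annotated gene.

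In the 3M single-end samples the normalised level of Cox8b was 3.86, 2.91, 1.94, 3.46 and 4.45 CPM. At 24M it was 6.26 in the pooled replicates 1 and 4, then 9.71, 4.43, 7.18 and 7.10 CPM in replicates 2, 3, 5 and 6. Replicate 2 was highest, and replicate 3 fell just inside the 3M range, so the groups overlapped by this 1 sample. The mean was 3.33 CPM at 3M (SD 0.956, n = 5) and 6.94 CPM at 24M (SD 1.91, n = 5). On the log2 scale the difference was 1.06 ± 0.23 (SE) with an adjusted p of 0.022 by edgeR, a 2.08-fold difference with a 95% confidence interval of 1.48 to 2.92. Its counts were low, 55 to 90 per library at 3M and 66 to 128 at 24M. The call was lost when libraries were thinned to the smallest total (adjusted p = 0.0526 by edgeR) and with the replicate number as a block (adjusted p = 0.0616 by edgeR), and without replicate 3, the library that stood apart, it held (log2 fold change 1.19, adjusted p = 0.0144 by edgeR).

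At 29M the level of Cox8b was 5.55, 5.80 and 6.10 CPM, against 2.72, 4.52 and 2.88 CPM in the 3M paired-end samples. All 3 aged samples exceeded all 3 young ones. The log2 fold change was 0.75 ± 0.20 (SE), a 1.69-fold difference (95% confidence interval 1.26 to 2.26), and the adjusted p of 0.0586 by edgeR did not pass. Without 3M replicate 2, the young sample at 4.52 CPM, it did (log2 fold change 1.06, adjusted p = 0.0162 by edgeR), and without 29M replicate 2 it did not (0.76, adjusted p = 0.0992 by edgeR). The effects at 29M and 24M differed by -0.30 ± 0.37 (SE) on the log2 scale (unadjusted p of 0.424 by edgeR). Cox8a showed no call at either age, with log2 fold changes of -0.08 ± 0.07 (SE) at 24M, or -0.03 without 24M replicate 3, and 0.00 ± 0.04 (SE) at 29M. Cox8b made up 1.12% to 2.56% of the length-corrected level of the pair in the 3M single-end group and 3.08% to 5.11% at 24M. The 3.08% was that of 24M replicate 3, the library that stood apart. Its Cox8a level was the lowest of the group (213 CPM, against 239 to 286 CPM), and its Cox8b level lay inside the 3M range. In the paired-end groups it made up 1.36% to 2.20% at 3M and 2.81% to 2.96% at 29M.

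**Figure D2:**
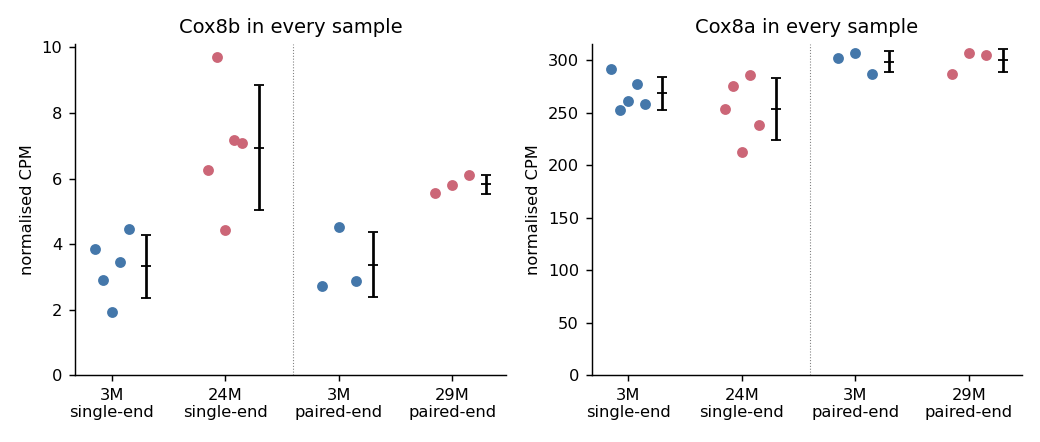
Each point is 1 sample, with normalised CPM from 0 on the y axis, Cox8b on the left and Cox8a on the right; the black mark and bars are the mean and SD of the group, and the dotted line parts the single-end from the paired-end libraries. Cox8b lies between 4.43 and 9.71 CPM at 24M and between 1.94 and 4.45 CPM in the 3M samples beside it, while Cox8a overlaps in both comparisons.

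Removing 24M replicate 2 left the log2 fold change of Cox8b at 0.91 but ended the call (adjusted p = 0.0667 by edgeR). That sample also had the highest level of blood markers. The 5 blood markers, 4 globin genes and the heme synthesis gene Alas2, summed to 544 CPM in it at the top of a 24M range that began at 76.3, against 53.3 to 108 CPM at 3M. At 29M they summed to 75.9 to 165 CPM against 70.6 to 83.7 CPM. The 29M sample with the lowest sum, replicate 1, had 5.55 CPM of Cox8b, lowest of its group but above all 3M samples. Replicate 3, with the highest sum, had 6.10 CPM, the highest of its group. In the 3M paired-end group, replicate 2 had the highest sum and the highest Cox8b, 4.52 CPM. In the 3M single-end group the highest sum, also in replicate 2, came with 2.91 CPM of Cox8b. Muscle and brown fat were the other sources examined. Their 9 markers summed to 21.3 to 25.7 CPM at 24M and 26.5 to 32.6 CPM at 3M (24.4 to 31.1 CPM at 29M and 25.3 to 31.8 CPM in its 3M group), and the brown fat gene Ucp1 did not exceed 0.228 CPM in any single-end sample. Acta1, Myh7 and Cidea made up most of these muscle and fat sums, and Myh7 was called lower at 24M (edgeR). The low markers Mylpf and Tnni2 lay above their 3M group at 29M. Mylpf was at 0.76 to 1.16 CPM against 0.39 to 0.72 CPM, and Tnni2 at 0.19 to 0.50 CPM against 0 to 0.07 CPM. Both overlapped at 24M, and the other markers of this list overlapped at 29M. Neither list was used in a test of Cox8b, so the part of blood, muscle or fat RNA in its level was not tested.

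The 103 genes tested at 24M had a median log2 fold change of -0.04 (all 15683 genes: -0.00). Above 0 were 38 of the 103 (36.9%, against 49.2% of all genes). The quartiles ran from -0.10 to 0.02. By group, the median was -0.05 for complex I subunits (14 of 36 above 0), -0.00 for complex II subunits (2 of 4) and -0.05 for complex III subunits (2 of 8). It was -0.04 for complex IV subunits (7 of 18) and -0.02 for ATP synthase subunits (5 of 15). Assembly factors were above 0 in 2 of 8 for complex I, 3 of 4 for complex II and 2 of 9 for complex IV. None of these genes other than Cox8b passed the test. Without 24M replicate 3, the median of the 103 genes was -0.02 and 46 were above 0. Without 3M replicate 2, the lowest of its group for most of these genes, the median was -0.06 and 26 were above 0.

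Markers of nuclear RNA were measured beside these genes. The 4 markers (Malat1, Meg3, Neat1 and Snhg11) summed to 1454 to 2360 CPM in the 3M single-end samples and 1520 to 4235 CPM at 24M, where 1 of the 4, Neat1, was called higher (edgeR). The highest sum was that of 24M replicate 3, with Malat1 at 1015 CPM against 357 to 524 CPM in the other 24M samples and Meg3 at 1910 against 633 to 982 CPM. In the paired-end samples the sums were 1924 to 2456 CPM at 3M and 3146 to 3603 CPM at 29M, and all 4 were called higher at 29M (median log2 fold change 0.78, edgeR). Their part in the medians of the oxidative phosphorylation genes was not tested.

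At 29M, 0 of 103 genes passed the adjusted p in either direction (edgeR), where 2.32% of 15097 genes were higher and 0.662% lower. Without the adjustment, 2 genes were higher and 12 lower at p under 0.05, which is 1.94% and 11.7% of those tested, against 9.86% and 7.48% of all genes. DESeq2 also gave 0 of 104 genes, against 1.28% of 17546 genes higher and 0.456% lower. At an unadjusted p under 0.05 it gave 6 of 105 (5.71%, against 6.33% of 24450 genes, with no filter on low counts). The median log2 fold change was -0.04 (all genes: -0.00), and 24 of 103 genes were above 0 (23.3%, against 49.4% of all genes). By group, 0 of 8 complex III subunits and 2 of 16 ATP synthase subunits were above 0, as were 8 of 36 complex I subunits, 1 of 4 of complex II and 5 of 17 of complex IV. Assembly factors were above 0 in 2 of 8, 2 of 4 and 3 of 9 for complexes I, II and IV. In 17 genes (16.5%, against 10.5% of all genes) every 29M sample lay below every 3M sample, and in 4 genes (3.88%, against 11.9%) above. Without 29M replicate 2, the median was -0.06 and 19 genes were above 0.

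**Figure D3:**
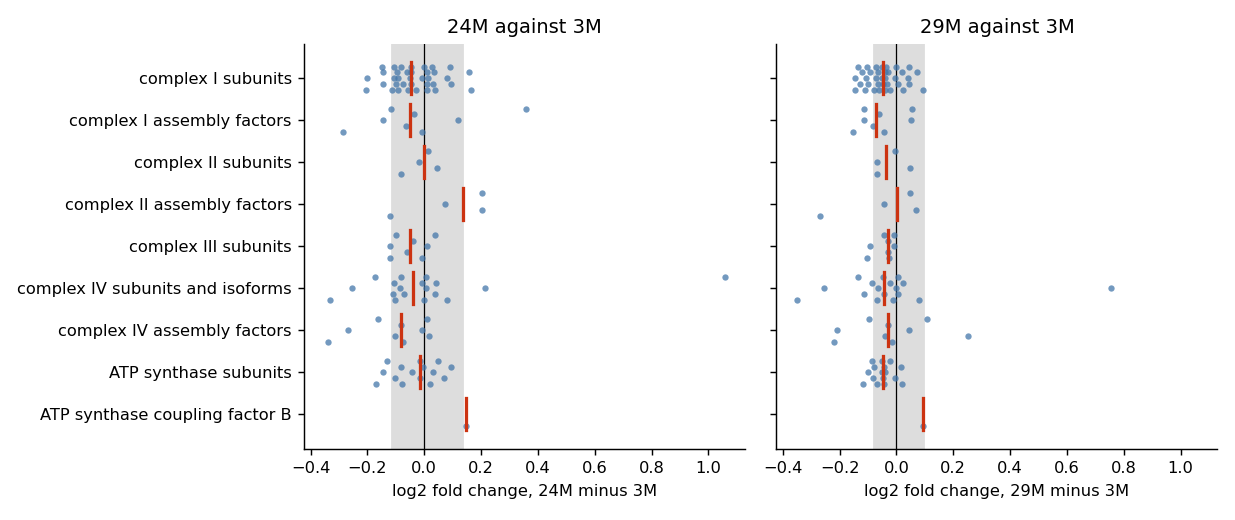
Each point is the log2 fold change of 1 gene against 3M, at 24M on the left and 29M on the right, by complex; red lines are group medians and the grey band spans the quartiles of all genes tested. Cox8b stands alone at 1.06 and 0.75, and the other points lie between -0.35 and 0.36.

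The confidence intervals bound what these samples could have missed. At 24M the 95% interval of 93 of 103 genes lay within 0.5 of no change on the log2 scale, and that of 62 within 0.25. At 29M these counts were 98 and 78. The genes outside 0.5 at 24M were Atp5l, Cox16, Cox20, Cox4i2, Cox6a2, Cox6b2, Cox7a1, Cox8b, Ndufaf4 and Ndufaf8. The interval of Ndufaf4, which was not low, ran from 0.12 to 0.60. At 29M they were Cox8b, Cox20, Cox6b2, Cox7a1 and Ndufa4l2, all of low counts. The estimate of Cox8b itself was 0.75 at 29M (interval 0.33 to 1.18). For a core subunit of each complex the interval was narrow. Atp5b changed by -0.01 on the log2 scale at 24M (interval -0.11 to 0.08) and -0.05 at 29M (-0.13 to 0.04). For Sdha, the flavoprotein of complex II, it was 0.04 (-0.04 to 0.13) and -0.01 (-0.08 to 0.07). For Ndufs1, the largest subunit of complex I, it was 0.08 (-0.01 to 0.17) and -0.00 (-0.09 to 0.09). Uqcrfs1, the iron-sulfur protein of complex III, had -0.06 (-0.18 to 0.06) and -0.03 (-0.11 to 0.05). The 24M value of Uqcrfs1 was -0.03 without 24M replicate 3 and -0.10 without 3M replicate 2. Cox5a, a nuclear subunit of complex IV, had -0.11 (-0.24 to 0.03) and -0.05 (-0.15 to 0.06).

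Among the higher genes at 24M, those with the smallest p after Cox8b were Ndufaf4, Sdhaf4, Ndufab1 and Sdhaf3. Ndufaf4, an assembly factor of complex I, was at 22.4, 29.0, 23.6, 30.3 and 33.9 CPM at 3M. At 24M it was at 37.8, 35.3, 38.6, 29.6 and 37.1 CPM, so that 4 of the 5 samples exceeded every 3M sample. Its log2 fold change was 0.36 ± 0.11 (SE) with an adjusted p of 0.0698 (edgeR), and -0.08 ± 0.07 (SE) at 29M. DESeq2 called it higher at 24M. Ndufab1, the mitochondrial acyl carrier protein that is also a complex I subunit, had 0.16 ± 0.07 (SE), and Sdhaf3, an assembly factor of complex II, 0.20 ± 0.09 (SE). Neither passed. Ndufab1 shares 12.3% of its 50-base windows with 2 pseudogenes, so its counts are uncertain.

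The lower genes with the smallest p at 24M were Cox16, Cox11, Ndufb10, Ndufaf8 and Cox14, and none passed (adjusted p of 0.0974 or above, edgeR). Cox16, Cox11 and Cox14 are assembly factors of complex IV, Cox11 acting in copper insertion. Cox16 was at 4.73, 3.64, 4.52, 4.84 and 4.20 CPM at 3M and 3.34, 3.41, 3.20, 3.56 and 3.98 CPM at 24M, with only the last sample inside the 3M range. Its log2 fold change of -0.34 ± 0.12 (SE) became -0.01 ± 0.19 (SE) at 29M. Of the 50-base windows of Cox16, 88.7% lie in the overlapping gene Gm20498, and of those of Cox11, 50.4% in Tom1l1, so counts on both are uncertain. Cox11 had -0.27 ± 0.10 (SE) and Ndufaf8, an assembly factor of complex I, -0.29 ± 0.11 (SE), or -0.20 without 24M replicate 3. Ndufb10, an accessory subunit of complex I, had -0.14 ± 0.06 (SE).

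Cox14 was among the lowest-p genes at both ages. It was at 42.5 to 45.0 CPM in the 3M single-end samples (median 43.6), and at 42.0, 38.8, 32.7, 42.9 and 38.8 CPM at 24M. In the paired-end samples it was at 44.5, 38.7 and 37.6 CPM at 3M and 34.7, 34.0 and 34.9 CPM at 29M. The groups overlapped at 24M and did not at 29M. The log2 fold changes were -0.16 ± 0.07 (SE) and -0.22 ± 0.07 (SE), with adjusted p of 0.154 and 0.124 (edgeR). Without 24M replicate 3 the 24M value was -0.11, and without 3M replicate 1, the paired-end sample at 44.5 CPM, the 29M value was -0.14.

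The lower genes with the smallest p at 29M were Ndufb11, Cox14, Uqcrh, Ndufa11 and Sdhaf4, with adjusted p from 0.121 to 0.184 (edgeR). Ndufb11, an accessory subunit of complex I encoded on the X chromosome, was at 100.7, 99.5 and 98.5 CPM at 3M and 87.6, 92.7 and 93.1 CPM at 29M. The samples did not overlap, with a log2 fold change of -0.13 ± 0.04 (SE). Uqcrh, the hinge protein of complex III, had -0.10 ± 0.04 (SE), and Ndufa11, another accessory subunit of complex I, -0.15 ± 0.05 (SE). Both separated the 29M from the 3M samples. Among the higher genes after Cox8b stood Cox6a1, with 0.08 ± 0.04 (SE), and Cox19, a copper-handling assembly factor of complex IV, with 0.11 ± 0.06 (SE). Ndufb3 had 0.07 ± 0.06 (SE) and Cox20 0.25 ± 0.18 (SE), the latter 0.13 without 29M replicate 3 and 0.35 without 29M replicate 2. Of the 50-base windows of Cox20, 59.7% lie in the overlapping gene Hnrnpu and 12.6% are shared with Cox20b, so its counts are uncertain.

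Whether the effects at the 2 ages, each against its own 3M group, differed was tested for 104 genes. In this difference, age and library type cannot be told apart. None of the 104 genes passed with edgeR, nor did any other of the 16055 genes (0%), and DESeq2 gave 0 as well. At an unadjusted p under 0.05 there were 3 genes with edgeR (2.88%, against 10.4% of all genes) and 3 with DESeq2 (2.86%, against 5.6%). The smallest p was that of Sdhaf4, a chaperone for the flavoprotein of complex II. It was at 12.8, 15.4, 13.8, 14.3 and 15.3 CPM in the 3M single-end samples and 16.9, 16.9, 15.8, 18.2 and 14.3 CPM at 24M. In the paired-end samples it was at 14.9, 16.8 and 13.9 CPM at 3M and 12.5, 13.8 and 12.1 CPM at 29M. The level was thus higher in 4 of 5 samples at 24M, and lower in all 3 at 29M, than in every 3M sample of its library type. The difference between the effects was -0.47 ± 0.13 (SE) on the log2 scale, with an unadjusted p of 0.0022 and an adjusted p of 0.392.

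**Figure D4:**
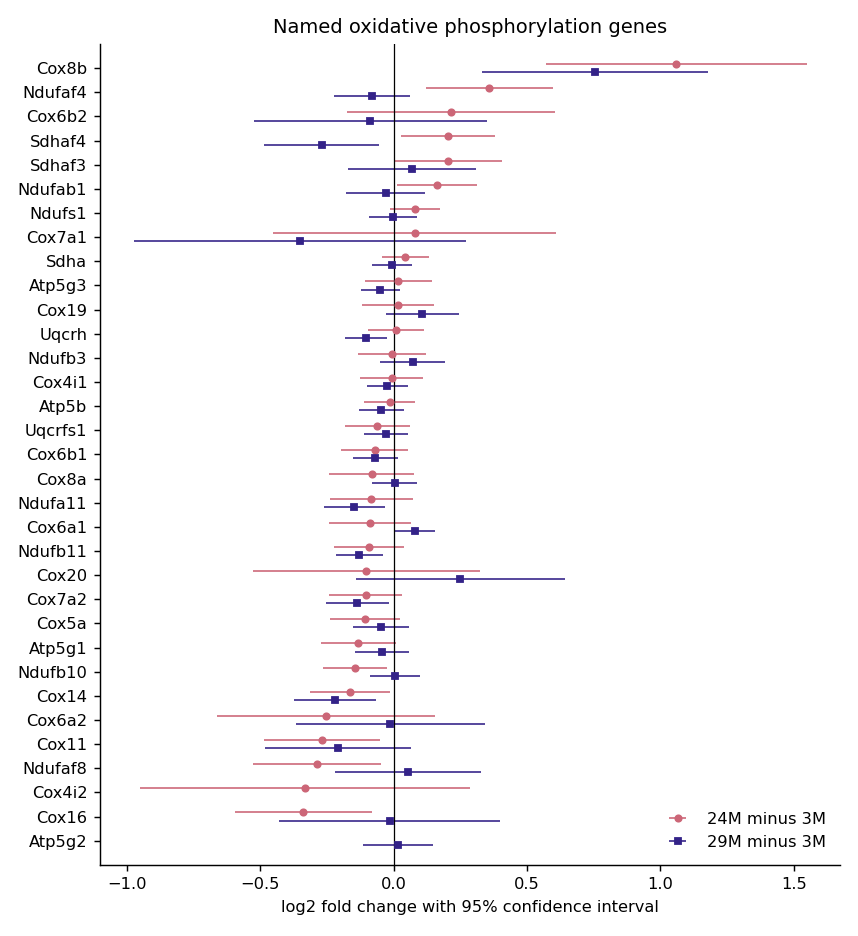
The x axis gives the log2 fold change against 3M with its 95% confidence interval, for the named genes on the y axis, in order of the 24M value; circles are 24M and squares 29M. Only Cox8b exceeds 0.5 at both ages, and most intervals cross 0.

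Some of these genes are uncertain because pseudogenes or other annotated genes carry part of their sequence. Of the 106 transcripts, 41 shared at least 1 window of 50 bases with another annotated gene that does not overlap them, and 20 shared 10% or more of their windows. The level of such genes differed between the library types. Of 103 genes with at least 1 CPM in the 3M paired-end group, 11 were over 2-fold higher there than in the 3M single-end group (10.7%, against 2.99% of 13548 other protein-coding genes). Each of the 11 shared at least 11.6% of its windows, with a median of 37.0%. Of the 87 genes within 1.5-fold, 5 shared 10% or more, and their median was 0%. The labels do not say whether the library types share 3M mice, and the part of the mice was not tested.

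Atp5g2, 1 of 3 genes for the c subunit of the ATP synthase ring, stood at the end of this range. Scaled to total gene counts alone, without TMM, it was at 0.049 to 0.313 CPM in the 3M single-end libraries and at 30.4 to 33.8 CPM in the 3M paired-end libraries, a 168-fold ratio of means. The ratios between library types all use this scale. It shared 87.4% of its windows with the pseudogenes Gm10175 and Gm10231, and the whole Gm10175 transcript of 645 bases is contained in it without a mismatch. Atp5l followed with a ratio of 16.5 and 68.5% of its windows shared. Cox7c, a small subunit of complex IV, was at 5.88 CPM single-end and 74.8 CPM paired-end, with 53.0% shared. The first 120 coding bases of Atp5g2 and Cox7c are shown with those of a pseudogene, and capitals mark the differing bases. Reads from this stretch of Atp5g2 could be placed in either copy. Reads from that of Cox7c could be so only where they miss the 2 differing bases. Atp5g2 lies at chr15:102662864-102672352 (minus strand) and its copy in Gm10175 at chr7:23946646-23947290. Cox7c lies at chr13:86044816-86046904 (minus strand) and Gm10012 at chr17:25901856-25902227 (GRCm38).
Atp5g2 and Gm10175: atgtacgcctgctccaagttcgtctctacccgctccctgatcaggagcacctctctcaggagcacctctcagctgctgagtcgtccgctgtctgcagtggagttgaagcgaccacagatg
Cox7c: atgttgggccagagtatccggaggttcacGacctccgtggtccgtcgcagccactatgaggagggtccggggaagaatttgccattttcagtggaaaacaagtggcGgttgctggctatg
Gm10012: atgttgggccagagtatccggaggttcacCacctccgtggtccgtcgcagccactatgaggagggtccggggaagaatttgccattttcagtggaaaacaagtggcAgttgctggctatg
The first pair holds 0 differences and the other 2. Within the paired-end libraries, the TMM-normalised level of Atp5g2 was 31.1, 33.3 and 32.0 CPM at 3M and 32.4, 32.2 and 33.0 CPM at 29M (log2 fold change 0.02 ± 0.06, SE), and it was too low in the single-end libraries to be tested. On the scale of total gene counts, Atp5g1 was at 24.4 CPM single-end and 129 CPM paired-end at 3M. Atp5g3, which shares no window, was at 249 and 234 CPM.

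**Figure D5:**
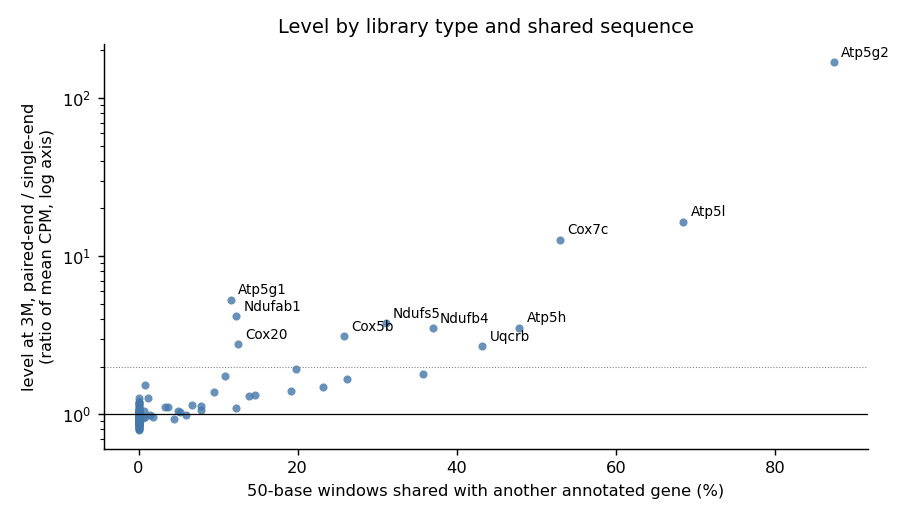
Each point is 1 of 103 genes, with the percent of its 50-base windows shared with another annotated gene on the x axis and the ratio of mean CPM in the 3M paired-end to the 3M single-end libraries on a log y axis; the dotted line marks 2-fold. The 11 genes above that line are named, with Atp5g2 at 168 and Atp5l at 16.5.

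In the RefSeq table (GRCm38), 87 of the 106 genes had a promoter, taken as 250 bases before to 50 after the start. The ETS motif CCGGAAG, read on both strands, was in 28.7% of them and in 11.9% of all 17492 promoters. The motif CGCATGCG of NRF1, a factor known for respiratory chain genes, was in 11.5% against 2.54%, and AAGATGGCG of YY1 in 9.2% against 1.94%. GGGCGG of SP1 was in 50.6% against 46.3%, and the TATA box letters TATAAA were in 10.3% against 13.3%. Of the isoform pair, the Cox8a promoter held the ETS motif and the Cox8b promoter the TATA box letters. The genes were short, with a median exon length of 1696.5 bases against 3559 for all protein-coding genes, and lay on 19 of 20 chromosomes.

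Other genes of respiration lie outside the symbol rule. Of 68 tested from a list of 71 carriers, assembly factors, regulators and citrate cycle genes, 1 was higher and 0 lower at 24M, and 0 passed at 29M (edgeR). Among all genes tested, 3.21% were higher and 2.37% lower at 24M, and 2.32% and 0.662% at 29M. The medians of the listed genes were -0.01 and -0.06 on the log2 scale. The listed gene that passed was Ppargc1a, a coactivator of mitochondrial biogenesis. It was at 57.1, 61.3, 60.8, 57.6 and 67.2 CPM at 3M and 68.4, 74.1, 74.95, 66.3 and 68.9 CPM at 24M. Its log2 fold change was 0.21 ± 0.06 (SE) and an adjusted p of 0.0469. At 29M its log2 fold change was -0.06 ± 0.06 (SE). Its 24M samples overlapped the 3M range by 1 sample, replicate 5. The highest was replicate 3, the library that stood apart, and no value without that library is given here. Cycs, which encodes cytochrome c, was at 5.18 to 9.98 CPM in the 3M single-end samples and 83.6 to 86.9 CPM in the paired-end ones, and did not pass at either age (log2 fold changes 0.30 ± 0.16 and -0.06 ± 0.05, SE).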

How the data were processed

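Hippocampal polyA RNA was sequenced in 17 libraries. The authors aligned reads to GRCm38 with STAR 2.3.0 and counted them per gene with HTSeq; they deposited raw counts, and the sources used here do not give the counting annotation. Reads assigned to no gene (no feature, ambiguous, not unique) were left out of library sizes and tests. Symbols came from GENCODE M21, which named 36602 of 38355 identifiers. The members, lists and tests were chosen with earlier results of these data known.

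Tests used the quasi-likelihood method of edgeR 4.0.16 (R 4.3.3) after TMM and filterByExpr, and levels are TMM-normalised CPM. The SE was obtained from the log2 fold change and its F statistic. On simulated data, 189 of 197 changed genes among 15538 were recovered for 24M against 3M with 14 false calls, and 189 of 198 among 14951 for 29M with 16. These counts pool all changed genes. Recovery at log2 fold changes as small as most of those reported here was not tested separately. Alternatives were DESeq2 1.42.0 or its size factors, other filters, 1 fit over 4 groups, the replicate number as a block, GC and length offsets, thinning, and each library left out. Named were genes past the threshold, the 5 smallest p in each direction, isoform pairs, 1 core subunit per complex and the gene with the smallest p between ages. The labels number libraries and name no animals, so p-values measure the spread between libraries. Levels between genes were divided by the length of the principal transcript. Intervals and floors cover counting error only where counts alone are used.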

Additional observations from a re-analysis of the deposited data

Results flagged for a closer look

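In the groups of 5 samples, the gap of the farthest sample to the others was set against the group's range for the named genes and for the share values, 68 groups in all. A ratio above 0.71 was reached in 6, where chance gives about 1 in 20, or 3.4. At 24M, replicate 3 held a share of 0.894% of counts on the oxidative phosphorylation genes against 1.002% to 1.03% in the others (ratio 0.792). The same library had the reads outside features at 17.3% against 13.2% to 13.8% (ratio 0.848). It also stood apart for Uqcrfs1, the iron-sulfur protein of complex III, with 104.5 CPM against 120.1 to 122.9 CPM (ratio 0.846). Sdhaf3 at 24M was at 10.97 CPM in replicate 6 and 13.8 to 14.3 CPM in the others (ratio 0.845). In the 3M single-end group, Uqcrfs1 was at 111 CPM in replicate 2 and 124 to 129 CPM in the others (ratio 0.743), and Ndufa11 at 67.5 CPM in replicate 1 against 57.9 to 60.3 CPM (ratio 0.749).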

How the results depend on the processing

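The number of higher genes at 24M was 1. It became 2 with DESeq2, with 4 groups in 1 fit and with 24M replicates 1 and 4 kept apart, where Ndufaf4 joined Cox8b, and 0 when libraries were thinned to the smallest total. With the replicate block it was 0 (Cox8b: log2 fold change 1.06, adjusted p = 0.0616). Leaving out 1 library at a time gave 0 to 2, with 0 without 24M replicate 2 and 2 without 3M replicate 5 or 24M replicate 5. The number of lower genes at 24M was 0 and became 1, Cox16 at -0.56, with GC and length offsets. The number of higher genes at 29M was 0 and became 1, Cox8b, without a filter on low counts, with the replicate block, when thinned, and without 3M replicate 2 (range over left-out libraries 0 to 1); all lower counts stayed at 0. The replicate numbers were not treated as pairing the samples: same-numbered samples had correlations of their deviations from -0.213 to 0.0602 at 24M and from -0.133 to 0.129 at 29M.

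The median log2 fold change at 29M moved from -0.04 to -0.069 with GC and length offsets and to -0.068 with these offsets and the replicate block; all genes then had a median of -0.03. At 24M it ranged from -0.06 to -0.02 over the alternatives. With GC and length offsets, 21 of 103 genes changed sign at 24M, the largest with a main log2 fold change of 0.20 in size. At 29M, 8 genes changed sign with these offsets, the largest at 0.04 in size. The log2 fold change of Cox8b ran from 0.90 to 1.19 at 24M and from 0.62 to 1.06 at 29M over left-out libraries. The cause of these changes was not tested. None of the oxidative phosphorylation genes differed between the ages in any of 19 alternatives; among all genes, 9 were higher and 83 lower of 15961 without 3M single-end replicate 5. Mitochondrially encoded genes took no part in the library sizes used here, so leaving them out of library sizes changes no value. At this depth 103 of the 106 genes could be tested in each comparison.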
